A study of Mus musculus with 2 samples.

Results

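The epidermal barrier genes described here are 35 genes for the crosslinking enzymes, lipid enzymes, proteases, protease inhibitors, secreted proteins and transcription regulators with which the outer epidermis seals itself. They were chosen by name, and all 35 were found among the 43346 Ensembl gene rows of the deposited tables, of which 21474 were protein coding by the annotation used here. The tissue was embryonic facial prominence, the part of the embryo that forms face and jaws, from B6NCrl mice at embryonic day 15.5. Total RNA was sequenced in 2 libraries of 1 group, replicate 1 from a pool of 78 embryos and replicate 2 from a pool of 62, both of mixed sex. No mutant, treatment or second stage was labelled, so the data give levels and the spread between 2 pools, with no test between groups. The pools average over embryos, and nothing in the labels separates skin from the other tissues of the face.

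The barrier forms as keratinocytes leave the basal layer and flatten into dead, cornified cells. Transglutaminases crosslink proteins into an envelope under the cell membrane, and ceramides with very long acyl chains are attached to it and fill the space between cells. Kallikrein proteases later cut the junctions that hold cornified cells together, and inhibitors restrain them. In the mouse this programme is laid down in the last days before birth.

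Levels are in TPM, the share of transcript molecules after correction for transcript length, and are given for replicate 1 and then replicate 2. A gene was called detected at 1 TPM or more in both libraries. By that rule 34 of the 35 barrier genes were detected, against 65.4% of all coding genes. At 10 TPM or more in both stood 22 of them, against 42.2% of coding genes, and at 100 TPM or more 5, against 6.74%. The median over all 35 barrier genes was 15.4 TPM and 16.4 TPM, against 6.0 TPM and 6.2 TPM over all coding genes. It was close to the median of detected coding genes alone, 18.0 TPM and 18.1 TPM. Expected counts on mouse genes summed to 36048494 and 36774513, and the barrier genes took 0.188% and 0.211% of them.

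By mean level the first 5 barrier genes were Krtdap, Dmkn, Asprv1, Sbsn and Elovl1, and 3 of them, Sbsn, Dmkn and Krtdap, are neighbours on chromosome 7. Sbsn (suprabasin) lies from 30751471 to 30756134, Dmkn (dermokine) from 30763756 to 30781063 and Krtdap (keratinocyte differentiation associated protein) from 30787896 to 30791097 in GRCm38. All 3 are on the plus strand, with 7621 bases between Sbsn and Dmkn and 6832 between Dmkn and Krtdap, and all encode secreted proteins of differentiating keratinocytes. Their promoters are shown because the genes are linked and abundant and because Dmkn has a start inside the gene that carried most of its transcripts. That of Asprv1, on chromosome 6, is shown beside them as an abundant gene outside the locus. Each sequence is the 250 bases before a RefSeq start in GRCm38.p6, 5′ to 3′ on the plus strand, and capitals mark the letters TGANTCA, the AP-1 motif.

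Sbsn, chr7:30751221-30751470: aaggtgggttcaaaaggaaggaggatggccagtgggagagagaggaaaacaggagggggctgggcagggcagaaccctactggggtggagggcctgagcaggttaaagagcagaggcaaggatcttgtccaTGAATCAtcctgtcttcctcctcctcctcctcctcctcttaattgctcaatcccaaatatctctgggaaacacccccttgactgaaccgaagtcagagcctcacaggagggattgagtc
Dmkn, first start, chr7:30763506-30763755: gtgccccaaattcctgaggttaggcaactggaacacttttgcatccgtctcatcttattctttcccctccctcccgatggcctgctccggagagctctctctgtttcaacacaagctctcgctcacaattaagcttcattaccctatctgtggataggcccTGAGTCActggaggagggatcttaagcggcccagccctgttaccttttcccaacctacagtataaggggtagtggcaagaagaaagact
Dmkn, internal start, chr7:30776155-30776404: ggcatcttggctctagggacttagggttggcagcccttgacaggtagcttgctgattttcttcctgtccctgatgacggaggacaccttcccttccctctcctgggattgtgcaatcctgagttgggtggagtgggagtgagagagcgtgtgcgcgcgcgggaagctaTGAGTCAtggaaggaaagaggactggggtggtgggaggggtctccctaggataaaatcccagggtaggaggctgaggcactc
Krtdap, chr7:30787655-30787904: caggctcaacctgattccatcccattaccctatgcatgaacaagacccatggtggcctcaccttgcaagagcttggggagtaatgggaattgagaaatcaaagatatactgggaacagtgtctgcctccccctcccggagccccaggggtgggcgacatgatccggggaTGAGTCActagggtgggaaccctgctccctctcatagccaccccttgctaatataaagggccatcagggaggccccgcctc
Asprv1, chr6:86627924-86628173: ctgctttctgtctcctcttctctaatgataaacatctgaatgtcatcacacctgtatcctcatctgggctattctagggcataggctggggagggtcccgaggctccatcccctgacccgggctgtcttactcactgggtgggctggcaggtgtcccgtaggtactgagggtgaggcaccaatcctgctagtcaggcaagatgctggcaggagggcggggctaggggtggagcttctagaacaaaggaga

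The 4 windows printed for Sbsn, Dmkn and Krtdap hold the AP-1 letters, and the windows of Asprv1 and Elovl1, the other genes among the first 5, do not. In the first Dmkn window the match begins 89 bases before the start, in the internal Dmkn window 82 bases before and in the Krtdap window 81 bases before, each time as TGAGTCA. In Sbsn a match to TGAATCA begins 119 bases before the start, and a second match, TGAGTCA, begins 6 bases before it and runs across it, so it is not in capitals. RefSeq windows of 250 bases before to 50 after a start were found for 27 of the 35 genes, 35 windows in all, some of which overlap. The AP-1 letters were in 6 of the 35 windows and in 4 genes, the other one being Hal, against 7.81% of the 32851 windows of all genes. Among the 6 are the nearly identical Dmkn windows that begin at 30763506 and 30763508. They hold the same match, so the number of windows counts it more than once. These are matches of letters and not sites shown to be bound.

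Other motifs were searched on both strands of the same windows. The grainyhead letters AACCGGTT were in 0 of the 35 windows and in 0.146% of all windows, and with 1 free base, AACNGGTT, which includes the former, only Tgm5 held them, against 2.09% of all windows. The Ovo-like letters CCGTTA were in 0 of 35 windows and in 2.76% of all. CACCC, a core of Kruppel-like motifs, was in 23 of 35 windows and in 57.5% of all. These shares say which letters the windows hold and nothing about the factors. Windows of Ovol1, Prss8, Elovl3, Aloxe3, Spink5, St14, Cst6 and Calml3 were not used here.

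Krtdap stood at 1335 TPM and 1489 TPM, which placed it 41st by mean level among all coding genes. It alone made up 47.2% and 47.7% of the summed TPM of the 35 genes. By expected counts, which weigh long transcripts more, Krtdap stood closer to Dmkn, at 10185 and 11941 against 8775 and 11040. Dmkn followed at 396 TPM and 455 TPM and Sbsn at 186 TPM and 166 TPM. The ranges of the 3 genes did not overlap, so their order was the same in both libraries. Their nearest coding neighbours, named by position, were Gapdhs at 0.84 TPM and 0.38 TPM on one side and Ffar2 at 0.11 TPM and 0.02 TPM on the other, so the 3 barrier genes stood between low genes. Beyond Gapdhs, Tmem147 stood at 136 TPM and 137 TPM. Beyond Ffar2, Ffar3 was listed at 0 in both libraries. Calml3, a calmodulin-like protein of epithelia, stood at 26.9 TPM and 24.5 TPM. Cdsn encodes corneodesmosin, an adhesive protein of the junctions between cornified cells, and stood at 9.71 TPM and 9.85 TPM.

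**Figure D1:**
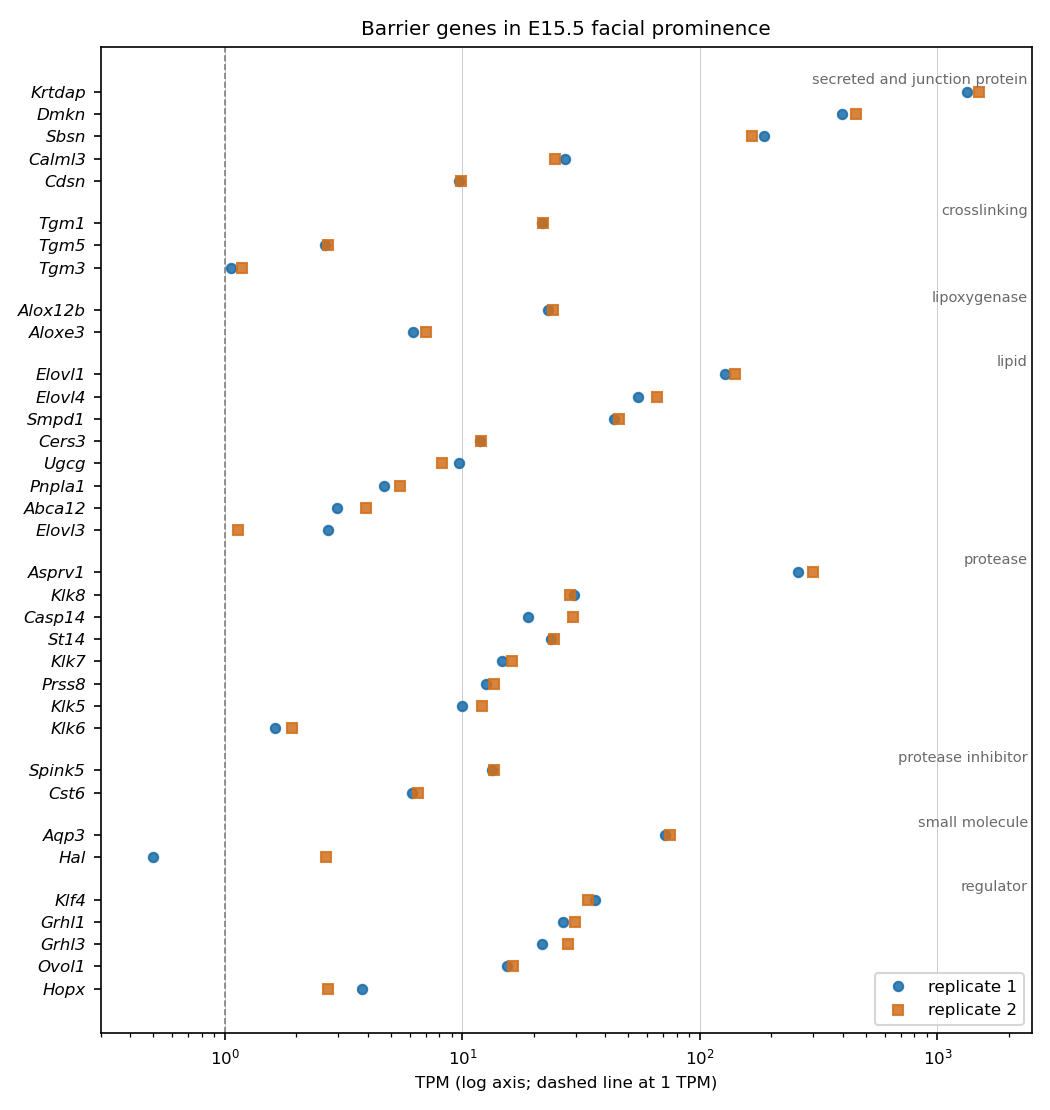
TPM of the 35 barrier genes (log axis) in replicate 1 (circles) and replicate 2 (squares), grouped by role, with a dashed line at 1 TPM. Krtdap is highest at 1335 and 1489 TPM, and Hal is the only gene with a library under 1 TPM, at 0.5 TPM in replicate 1.

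Dmkn was transcribed from several annotated starts. The transcript from the internal start at 30776401, Dmkn-201, which has 662 bases, took 69.7% and 65.0% of the gene's TPM. Because it is short, its share of expected counts was smaller, 43.7% and 38.8%. The transcripts from the first start, led by Dmkn-205 with 2063 bases, took 23.2% and 26.0% of TPM but 49.4% and 52.8% of counts. By molecules the short form led in both libraries, and by reads the long forms did. Only 102 of the 662 bases of Dmkn-201 are in no other Dmkn transcript, so the split rests in part on the authors' assignment of shared reads.

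The Sbsn value holds a share that may not belong to Sbsn. The authors' M4 annotation put into the Sbsn row a noncoding transcript that begins upstream at 30734739 and that GENCODE M21 assigns to Tmem147os. It took 16.4% and 18.7% of the row's TPM, and 177 of its 456 bases are in no other transcript of the row. Without it Sbsn came to 156 TPM and 135 TPM, above Elovl1 in replicate 1 and below it in replicate 2. In Krtdap, 93.6% and 95.6% of TPM lay on transcripts from 1 group of starts at the 5′ end of the gene.

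**Figure D2:**
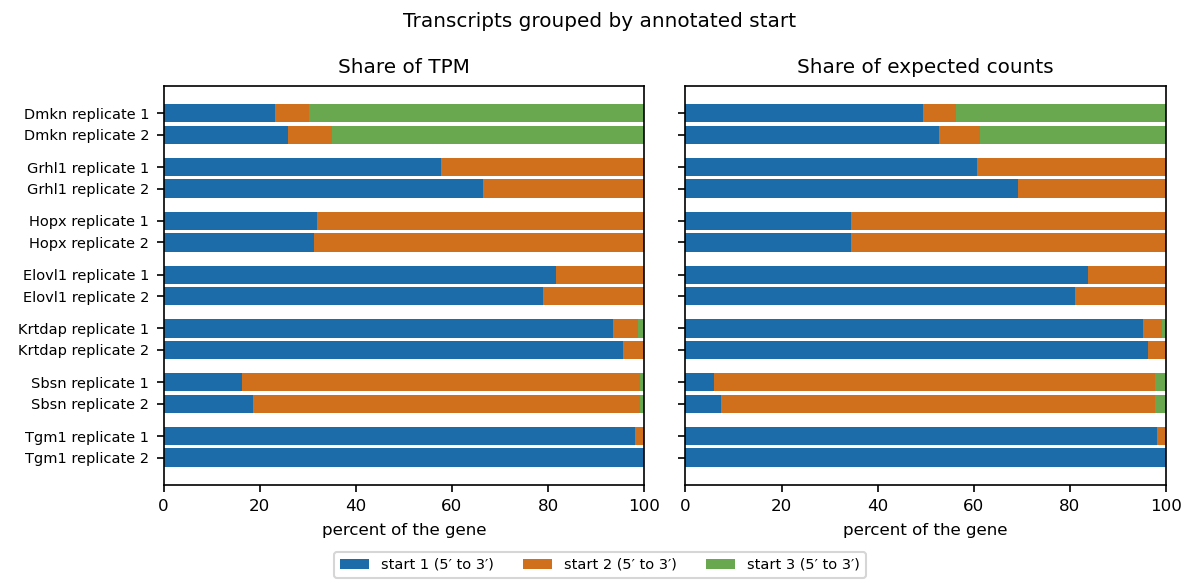
Share of each gene's TPM (left) and expected counts (right) by annotated start, in percent, with transcripts whose starts lie within 100 bases joined and starts numbered from 5′ to 3′. The internal start of Dmkn (start 3) has 69.7% and 65.0% of TPM but 43.7% and 38.8% of counts; start 1 of Sbsn is the transcript now assigned to Tmem147os.

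**Figure D3:**
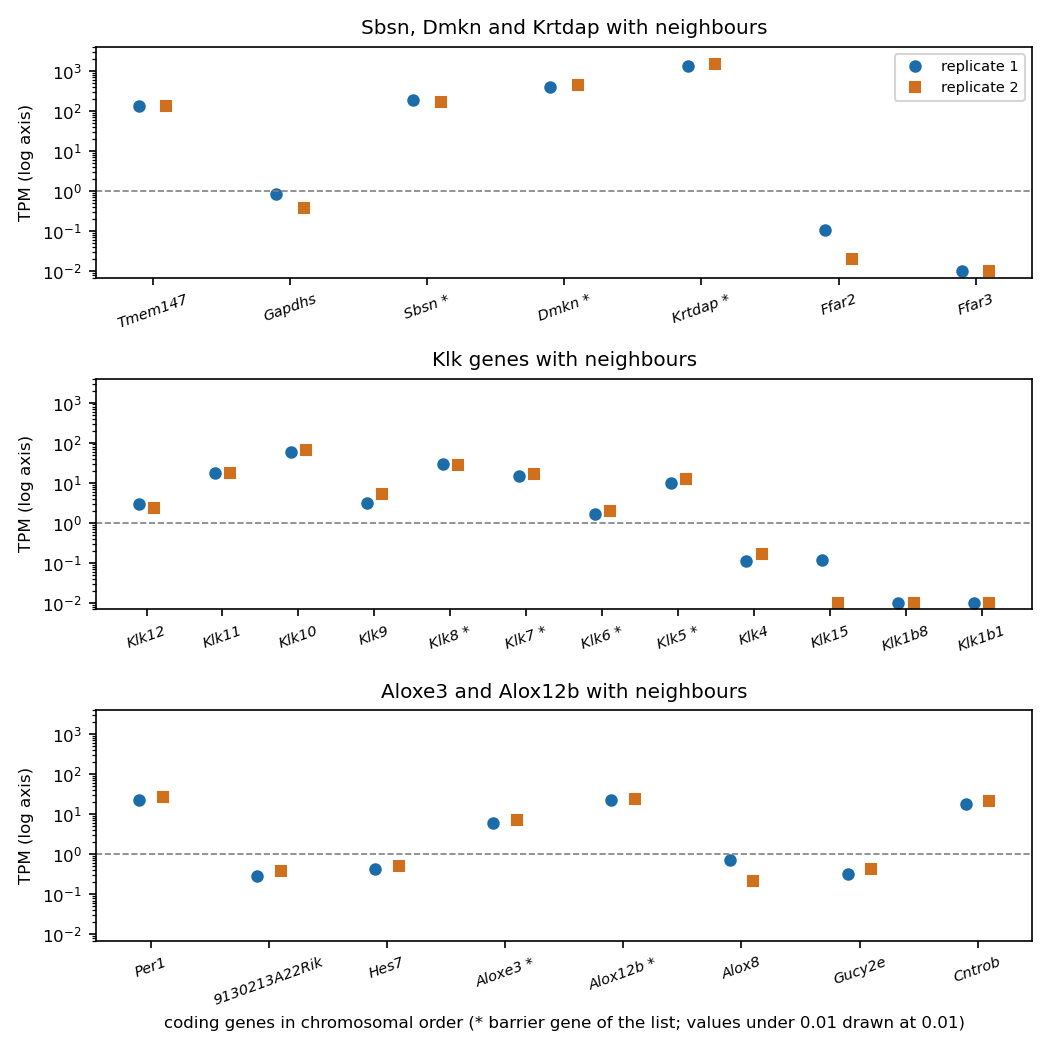
TPM (log axis) of coding genes in chromosomal order around 3 groups of linked barrier genes (asterisks), replicate 1 as circles and replicate 2 as squares, with a dashed line at 1 TPM. Sbsn, Dmkn and Krtdap stand between Gapdhs and Ffar2, both under 1 TPM.

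Among the crosslinking enzymes Tgm1 was far above its relatives. Tgm1, the membrane-bound transglutaminase of keratinocytes, stood at 21.6 TPM and 21.8 TPM, the closest agreement in relative terms among the 35 genes. Tgm5 stood at 2.63 TPM and 2.72 TPM, and Tgm3, an enzyme of late differentiation and hair follicles, at 1.06 TPM and 1.18 TPM. Tgm1 was thus 20.4 and 18.4 times Tgm3 on the TPM scale. Within the family of 8, however, F13a1, a clotting factor subunit that macrophages also make, was higher at 36.6 TPM and 34.9 TPM, and Tgm2, the widely expressed member, reached 14.4 TPM and 17.5 TPM. Tgm1 made up 28.1% and 27.7% of the family's TPM, and Tgm3 1.38% and 1.5%. Macrophage markers, which bear on F13a1, were all 6 detected, with summed levels of 188 TPM and 176 TPM.

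The lipoxygenases Alox12b and Aloxe3 act one after the other on the linoleate of ceramides, a step that readies them for attachment to the envelope. Their genes are neighbours on chromosome 11, from 69125896 to 69149115 for Aloxe3 and from 69156989 to 69169792 for Alox12b, with 7873 bases between them. Alox12b stood at 23.0 TPM and 24.0 TPM and Aloxe3 at 6.18 TPM and 7.04 TPM, so the second enzyme of the pair was lower in both libraries. Alox12b led its family of 7 with 46.1% and 44.1% of TPM. The other family members at 1 TPM or more in both libraries were Alox12 (12.3 TPM and 13.8 TPM), Alox12e (4.76 TPM and 5.45 TPM), Alox5 (1.85 TPM and 1.77 TPM) and Alox15 (1.07 TPM and 2.08 TPM).

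All 8 lipid genes were detected, but over a wide span. Elovl1, which lengthens saturated fatty acids and is used by many cell types, led at 128 TPM and 141 TPM. Elovl4, which makes the ultra-long acyl chains of barrier ceramides and is also known from the retina, stood at 54.9 TPM and 65.8 TPM. None of 6 retina markers was detected, with a sum of 0.4 TPM and 0.48 TPM, and which cells of the tissue make Elovl4 was not tested. Smpd1, the lysosomal acid sphingomyelinase, stood at 43.6 TPM and 45.5 TPM. Cers3, the ceramide synthase for such ultra-long chains, stood at 11.9 TPM in both libraries. The other genes of ceramide handling were lower than these. Ugcg, which adds glucose to ceramides before they are packed for export, had 9.69 TPM and 8.19 TPM, Pnpla1, which links linoleate to ceramides, 4.69 TPM and 5.47 TPM, and Abca12, which loads lipids into lamellar granules, 2.97 TPM and 3.93 TPM.

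Elovl3, an elongase known from sebaceous glands and brown fat, was the lowest lipid gene at 2.71 TPM and 1.14 TPM, and its libraries differed by more than those of any other lipid gene. Of 6 adipocyte and sebocyte markers only Mc5r, a receptor of sebaceous glands, was detected, at 4.09 TPM and 3.70 TPM, and the list summed to 4.26 TPM and 4.15 TPM. Within the family of 7 elongases Elovl1 took 50.3% and 51.1% of TPM, Elovl4 21.6% and 23.8% and Elovl3 1.07% and 0.413%. Elovl5 (48.4 TPM and 45.5 TPM), Elovl6 (12.8 TPM and 14.1 TPM), Elovl7 (5.30 TPM and 5.37 TPM) and Elovl2 (2.42 TPM and 3.30 TPM) stood below Elovl4, and Elovl2 overlapped Elovl3. Elovl1 and Elovl4 were thus the leading elongases of the tissue.

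Ceramide synthases showed another order. Cers2, the broadly expressed member, led the 6 with 50.2% and 49.3% of TPM (117 TPM and 120 TPM), and Cers3 took 5.07% and 4.89%, with only Cers1 below it. Cers5 stood at 59.1 TPM and 61.5 TPM, Cers6 at 23.5 TPM and 26.7 TPM, Cers4 at 15.0 TPM and 16.5 TPM and Cers1 at 7.10 TPM and 7.28 TPM. In bulk tissue a gene confined to few cells and a gene low in each cell cannot be told apart. Among the sphingomyelinases Smpd1 lay beside Smpd2 (48.8 TPM and 46.1 TPM), and the ranges of the pair did not overlap by a small margin. Smpd3 stood at 25.4 TPM and 23.0 TPM and Smpd4 at 22.4 TPM and 24.9 TPM.

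The other lipid genes of the barrier were mostly present. Of 22 listed, 20 were detected, with a median of 17.5 TPM and 19.1 TPM. Psap, the precursor of the activators of sphingolipid breakdown, led at 132 TPM in both libraries, Degs1, a ceramide desaturase, stood at 115 TPM and 112 TPM, and Asah1, an acid ceramidase, at 69.4 TPM and 71.6 TPM. The exceptions, named after their values were seen, were Lipn, a lipase of late differentiation, and Fa2h, a fatty acid hydroxylase.

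**Figure D4:**
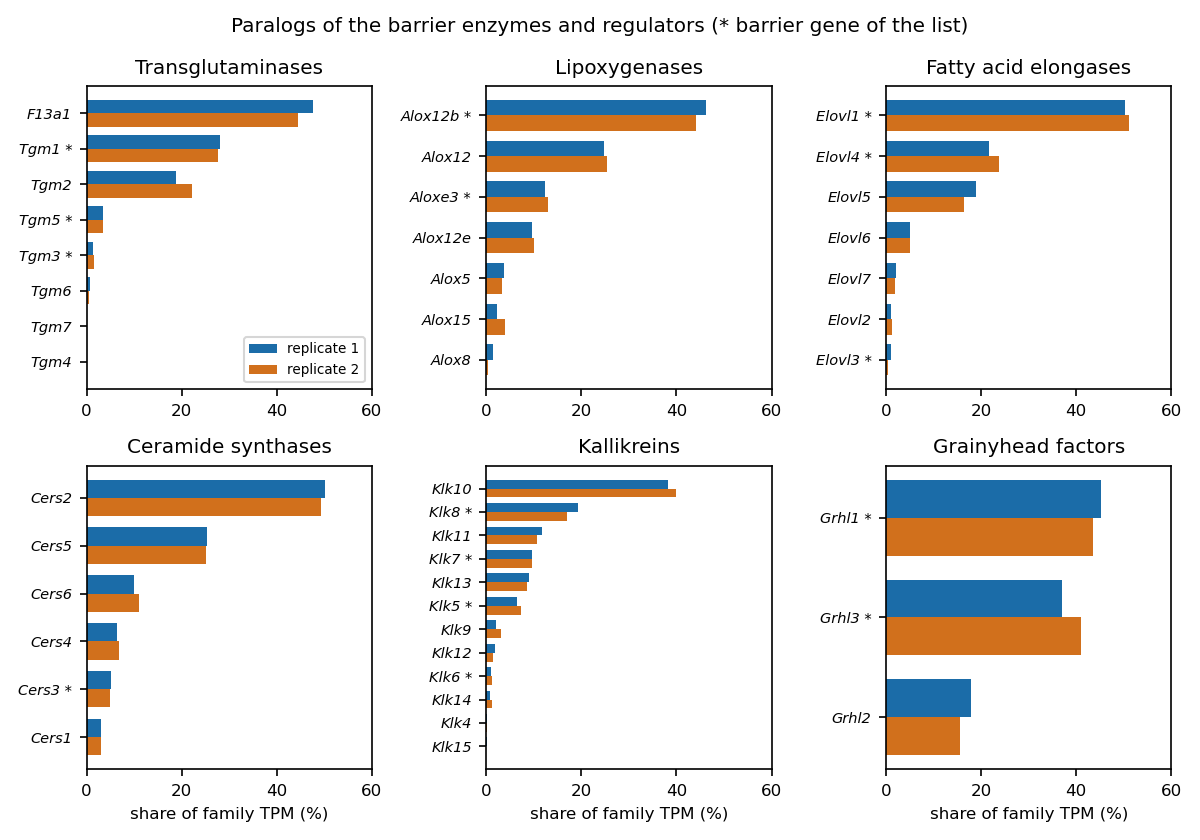
Share of the summed TPM of each family's listed genes taken by each paralog, in percent, in replicate 1 (blue) and replicate 2 (orange), with asterisks at barrier genes of the list. Elovl1, Alox12b and Grhl1 lead their families at 50.3%, 46.1% and 45.3% in replicate 1, while Cers3 takes 5.07% of its own.

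The proteases were led by Asprv1, which cuts profilaggrin between its repeats, at 258 TPM and 300 TPM. It lies on chromosome 6 from 86628164 to 86629710 and has a single annotated transcript. Casp14, a caspase that takes part in the breakdown of filaggrin, stood at 18.9 TPM and 29.2 TPM. The gene of their substrate, Flg, was singled out after its values were seen and stood at 0.08 TPM and 0.18 TPM. Both enzyme genes were thus detected while their substrate's transcript was under 1 TPM. Only Asprv1 was abundant, and Casp14 in replicate 1 lay near the median of detected coding genes, 18.0 TPM. Flg consists largely of repeats, so its value is uncertain where reads match several copies.

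Among the membrane proteases St14 was the higher. St14 (matriptase) stood at 23.5 TPM and 24.2 TPM, and Prss8 (prostasin), which St14 can activate, at 12.6 TPM and 13.6 TPM. Of 18 other barrier proteases and inhibitors 15 were detected, with medians of 45.8 TPM and 41.4 TPM. The list was led by Cst3, a cystatin made by most tissues, at 434 TPM and 420 TPM, the lysosomal protease gene Ctsd at 304 TPM and 307 TPM and the cystatin gene Cstb at 214 TPM and 216 TPM.

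The kallikreins, which lie side by side on chromosome 7, differed in level by far more than their libraries did. Klk8 stood at 29.4 TPM and 28.4 TPM, Klk7, which cuts corneodesmosin, at 14.6 TPM and 16.2 TPM, Klk5, which activates other kallikreins, at 9.97 TPM and 12.1 TPM, and Klk6, known also from oligodendrocytes, at 1.62 TPM and 1.92 TPM. These 4 did not overlap in range and kept their order in both libraries. Across the 12 kallikreins listed, a part of the mouse family, the leader was Klk10, at 58.5 TPM and 66.5 TPM. It is not among the 35 genes and took 38.3% and 39.8% of the TPM of the 12. Also detected were Klk11 (17.9 TPM and 18.0 TPM), Klk13 (13.6 TPM and 14.4 TPM), Klk9 (3.07 TPM and 5.26 TPM), Klk12 (2.86 TPM and 2.32 TPM) and Klk14 (1.07 TPM and 1.90 TPM). Klk4 and Klk15, past Klk5 on the chromosome, were the listed genes not detected, at 0.11 TPM and 0.17 TPM for Klk4 and 0.12 TPM and 0 for Klk15. Past Klk15, Klk1b8 and Klk1b1, which are not among the 12, were at 0 in both libraries.

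For Klk6 the libraries split the transcripts differently, with 77.9% of TPM on the first start in replicate 1 and 20.9% in replicate 2, but only 40 and 53 counts lay behind this. Of 6 oligodendrocyte markers 3 were detected, the list summed to 18.9 TPM and 23.0 TPM, and Opalin was listed at 0 in both libraries. Klk8 shares 24.8% of its exon bases with 2310002F09Rik on the opposite strand, which stood at 2.45 TPM and 3.83 TPM. The strand setting is not given in the sources used here, so reads of such overlaps cannot be told apart. Exons of 9 of the 35 genes overlap those of another gene in this way or on the same strand, among them Prss8, which shares 122 bases with Kat8 (29.3 TPM and 27.9 TPM), and Elovl1, which shares 53 bases with Cdc20 (146 TPM in both libraries).

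The inhibitors were Spink5 and Cst6. Spink5, whose product LEKTI blocks Klk5 and Klk7, stood at 13.4 TPM and 13.6 TPM. Cst6, a cystatin that inhibits cathepsins and legumain, stood at 6.12 TPM and 6.5 TPM. Spink5 thus lay between its targets Klk7 and Klk5 in both libraries.

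The envelope proteins on which these enzymes act were mostly detected, 14 of the 16 listed, with a median of 22.6 TPM and 19.6 TPM. Cnfn (cornifelin) led at 329 TPM and 298 TPM, followed by the small proline-rich gene Sprr1a at 243 TPM and 261 TPM and by Lor (loricrin), a main envelope protein, at 182 TPM and 148 TPM. Flg and Flg2 were the ones not detected.

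Hal and Aqp3 serve small molecules of the skin. Aqp3, a channel for water and glycerol in keratinocyte membranes, stood at 71.2 TPM and 74.5 TPM and was second to Aqp1 (94.4 TPM and 96.8 TPM), a channel of vessels and red blood cells, among 9 aquaporins. Aqp5 (2.10 TPM and 4.15 TPM), Aqp4 (2.66 TPM and 3.96 TPM), Aqp11 (2.99 TPM and 2.90 TPM) and Aqp9 (1.01 TPM and 1.15 TPM) were low, and Aqp2 was listed at 0 in both libraries. Hal, which turns histidine into urocanate, a light-absorbing compound of the cornified layer, had 0.5 TPM and 2.67 TPM and was the gene under 1 TPM in a library. Most of its TPM lay on transcripts annotated as noncoding or as targets of decay, and its coding transcript took 14.3% and 9.97% of TPM but 35.7% and 29.2% of counts. Of 6 liver markers, listed because liver also makes Hal, only Alb was detected, at 2.48 TPM and 2.02 TPM, and the list summed to 4.07 TPM and 4.82 TPM.

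Of the 5 regulators 4 stood at 10 TPM or more in both libraries. Klf4, a zinc finger factor needed for the barrier, stood at 36.3 TPM and 33.8 TPM. Grhl1 and Grhl3, grainyhead factors of epithelia, stood at 26.4 TPM and 29.7 TPM and at 21.5 TPM and 27.9 TPM, and their ranges overlapped. Ovol1, a zinc finger factor that limits growth of keratinocytes, stood at 15.4 TPM and 16.4 TPM. Hopx, an atypical homeodomain protein that does not bind DNA, was lowest at 3.77 TPM and 2.72 TPM. Of 6 heart markers, listed because heart also makes Hopx, 3 were detected, and the list summed to 175 TPM and 125 TPM, nearly all of it Tnnt2 (167 TPM and 119 TPM), which embryonic skeletal muscle expresses as well.

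Within their families the barrier regulators led in some cases. Grhl1 took 45.3% and 43.5% of grainyhead TPM, Grhl3 36.9% and 41.0%, and Grhl2, at 10.4 TPM and 10.6 TPM, the rest. Ovol1 took 83.7% and 81.7% of its family, with Ovol2 at 2.68 TPM and 3.43 TPM. Klf4 did not lead among 10 Kruppel-like genes, where Klf5 stood at 71.3 TPM and 79.2 TPM and Klf3 at 50.1 TPM and 47.4 TPM. It lay beside Klf6 (36.4 TPM and 33.7 TPM), Klf10 (33.2 TPM and 32.9 TPM) and Klf13 (31.4 TPM and 31.3 TPM). Klf7 (22.4 TPM and 20.8 TPM), Klf2 (9.73 TPM and 12.1 TPM), Klf9 (6.27 TPM and 7 TPM) and Klf1 (1.05 TPM and 1.27 TPM) were lower.

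Grhl1 had transcripts from 2 annotated starts. On chromosome 12 the first, at 24572283, took 57.8% and 66.6% of its TPM and the second, at 24580749, the rest, so the upstream start led in both libraries. Only 35 of the 3070 exon bases of the second start's transcript are in no other Grhl1 transcript. The split thus rests in part on the authors' assignment of shared reads. Hopx had 32.0% and 31.2% of TPM on its upstream start, an even split between libraries despite its low counts. All 20 other epidermal regulators listed were detected, with a median of 21.6 TPM and 20.4 TPM. Klf5 led them, followed by Trp63, the p63 gene on which stratified epithelia depend, at 64.9 TPM and 58.5 TPM, and Hes1, a target of Notch signalling, at 52.9 TPM and 50.1 TPM.

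Ordered by mean level, the 35 genes spanned 1260-fold from Tgm3 to Krtdap. Of the 34 pairs of neighbours in that order, 16 had library values that overlapped, so their order is not fixed by these data. From Krtdap down to Klk8 no neighbours overlapped in the deposited gene values. Without the transcript now assigned to Tmem147os, Sbsn (156 TPM and 135 TPM) would overlap Elovl1 (128 TPM and 141 TPM). Klk8, Grhl1, Calml3, Grhl3, Casp14, St14 and Alox12b formed an overlapping run, and so did the genes from Abca12 down to Tgm3.

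The libraries were compared gene by gene with the ratio of replicate 2 over replicate 1, after scaling by TMM, a method that sets the bulk of genes to no change. Past 1.5-fold lay 3 of the 35 genes, against 6.5% of coding genes with 10 or more counts in both. Higher in replicate 2 were 2, against 4.36%, and lower 1, against 2.14%. These shares pool coding genes of all counts, and the share past 1.5-fold fell as counts rose. It was 24.7% at mean counts of 30 to under 100, the range of Hal and Elovl3. At 1000 to under 3000, the range of Casp14, it was 0.519%. Hal had 26 and 122 counts, a ratio of 4.5 without a prior count (95% exact interval 2.93 to 7.17). With the prior count of 2 used for the log2 ratios, Hal was 4.26-fold higher. The deposited credibility bounds of its TPM were 0.335 to 1.10 and 2.14 to 3.67 and did not overlap. Elovl3 had 93 and 41 counts, a ratio of 0.423 (0.286 to 0.617), and Casp14 had 1040 and 1673 counts, a ratio of 1.54 (1.43 to 1.67) under TMM. With scaling by spike-ins, which shifts all genes alike, the log2 ratio of Casp14 was -0.027, but it lay 0.62 above the median of coding genes under both scalings. Past 1.5-fold with that scaling were 16 of the 35 genes, against 66.2% of coding genes. These intervals cover counting error only, and with 1 pool in each library the differences have no further replicate.

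Small differences mostly pointed one way. The ratio was above 1 for 28 of the 35 genes, against 51.2% of coding genes, with a median log2 ratio of 0.09, against 0.0043 for coding genes, but with scaling by the added spike-ins only Hal, 1 of the 35, was above 1, against 3.75% of coding genes, and the medians were -0.56 and -0.65. Because the spread shrinks with counts, each gene was also set against the central 95% of coding genes of like count, outside of which 8 of the 35 lay, against 5.04% of coding genes. Hal, Casp14, Grhl3 (ratio 1.30), Dmkn (1.21), Elovl4 (1.17) and Asprv1 (1.17) lay above that range, and Elovl3 and Sbsn (0.832) below it. The libraries were replicates of 1 group, and the 35 genes are not independent of each other, so no test was made.

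Other epithelial markers, on the same TMM scale, differed between the libraries in several ways; a spike-in scale lowers each log2 ratio by about the shift of all coding genes given above. Of 6 basal keratinocyte markers 1 was higher in replicate 2, with a median log2 ratio of -0.11 and a sum of 2869 TPM and 2551 TPM, led by Krt14 (1005 TPM and 887 TPM), Krt15 (971 TPM and 891 TPM) and Krt5 (793 TPM and 682 TPM). Of 6 suprabasal markers 3 were higher, with a median of -0.01 and a sum of 1028 TPM and 1034 TPM, led by Krt1 (604 TPM and 611 TPM), Krt10 (342 TPM and 332 TPM) and Krt77 (53.9 TPM and 63.1 TPM). Of 6 simple epithelial and periderm markers 5 were higher, with a median of 0.25 and a sum of 1121 TPM and 1162 TPM, led by Krt17 (404 TPM and 314 TPM), Sfn (279 TPM and 284 TPM) and Krt19 (184 TPM and 242 TPM). The suprabasal markers went both ways, since Dsc1 (2.10 TPM and 1.30 TPM) and Krt2 (1.61 TPM and 0.93 TPM), named after their values were seen, were past 1.5-fold lower. Most basal markers were thus lower while most barrier genes were slightly higher, and the part of cell makeup in this was not tested. Oral and nonkeratinised epithelial markers, 5 of 6 detected, summed to 631 TPM and 556 TPM, led by Krt6a (263 TPM and 247 TPM), Krt4 (170 TPM and 171 TPM) and Krt13 (181 TPM and 122 TPM). Barrier genes that oral epithelium shares with skin cannot be assigned to either in these data. Krtdap was 3.91 and 4.48 times Krt10 and 1.33 and 1.68 times Krt14 on the TPM scale. By expected counts, which weigh long transcripts more, Krtdap (10185 and 11941) was below Krt10 (16799 and 17044).

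**Figure D5:**
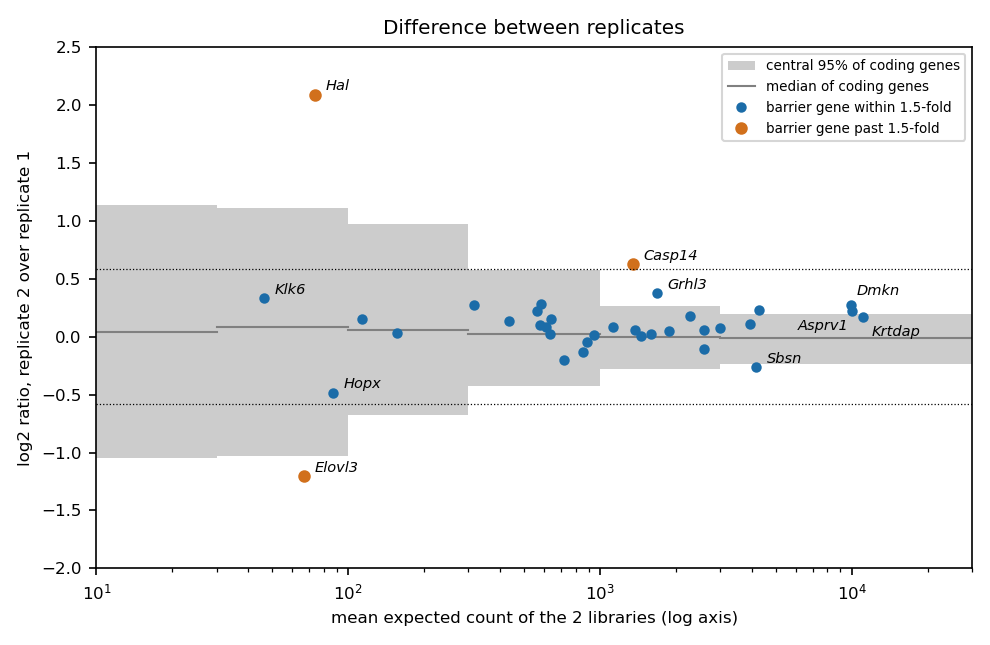
Log2 ratio of replicate 2 over replicate 1 after TMM scaling against the mean expected count (log axis) for the 35 barrier genes, with the central 95% of coding genes in each count range in grey and dotted lines at 1.5-fold. Hal, Elovl3 and Casp14 (orange) lie past 1.5-fold, and 28 of the 35 points lie above 0; with scaling by spike-ins 1 would.

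The 6 mesenchyme markers were all detected, at a sum of 6700 TPM and 6292 TPM, led by Col1a1 (3354 TPM and 3336 TPM), Col3a1 (2612 TPM and 2239 TPM) and Dcn (574 TPM and 553 TPM). All 6 neuron markers, at a sum of 92.2 TPM and 96.9 TPM, and all 6 erythroid markers, at 6153 TPM and 4531 TPM, were detected too. The barrier levels are averages over this mixed tissue.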

How the data were processed

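Total RNA over 200 nucleotides long, 10 ng per library, was sequenced from 2 pools of embryonic facial prominence. The labels number the pools as biological replicates and give both the same donor label, so the spread between them may be partly technical. Per the deposited text of each sample, the authors used assembly mm10 and gene annotation M4. Not given in the sources used here were the aligner, the quantifier, their versions and whether strand was used. Per the file headers, the authors deposited an expected count and TPM for each gene and transcript, the percent of a gene's TPM on each transcript, and credibility bounds of TPM, treated here as a score because their level is not printed. Spike-ins share the TPM scale and took 2.91% and 4.59% of the 37128010 and 38543623 expected counts.

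Names came from GENCODE M21 (GRCm38) and promoters from RefSeq (GRCm38.p6). Rounded expected counts were scaled by TMM factors of 0.989 and 1.01 (edgeR 4.0.16, R 4.3.3) with a prior count of 2, and ratios were taken where both libraries had at least 10 counts; this step was tested on simulated data. Other steps used Python 3.11.15. DESeq2 1.42.0 size factors, total counts and spike-ins gave other scalings. Intervals of ratios are exact binomial, and they and the ratios printed beside them leave out the prior count. Each of the 35 genes is named, as are paralogs at 1 TPM or more, up to 3 leading genes of each further list, and genes at 0. The genes and lists were chosen with earlier results of these data known.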

Additional observations from a re-analysis of the deposited data

How the results depend on the processing

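The count of detected barrier genes, 34, ranged from 27 at a threshold of 5 TPM to 35 at 0.5 TPM, and from 34 to 35 when either replicate was left out. The median over the genes, 15.9 TPM, ranged from 15.4 TPM to 16.4 TPM without either replicate and rose to 17.4 TPM when TPM was rescaled over Ensembl genes alone; the sum, 2974 TPM, ranged from 2830 TPM to 3118 TPM and rose to 3246 TPM. That rescaling raised each gene by 1.08 to 1.11 times. Posterior mean TPM changed single genes by 0.977 to 1.15 times, the most for Klk6.

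Scaling by spike-ins moved the median log2 ratio of all coding genes from 0.00 to -0.65. It moved that of the barrier genes from 0.09 to -0.56, took the number past 1.5-fold from 3 to 16, against a rise from 6.5% to 66.2% of coding genes, and turned the log2 ratio of Casp14 from 0.63 to -0.027, a shift that all genes share. DESeq2 size factors, total counts, a prior count of 0.5 and no filter on counts left 3 genes past 1.5-fold. Depth limits Hal, Klk6, Elovl3, Hopx and Tgm3 most, with 26 to 122 counts in a library.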

Other observations

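Noncoding transcript models took part of some gene values. Of the 35 genes 17 had a single annotated transcript and 18 had several, and in 16 of the 18 the same transcript led in both libraries, Hal and Klk6 being the exceptions. At 90% or more of TPM on coding transcripts in both libraries stood 28 genes. The other 7 were Abca12, Aloxe3, Hal, Krtdap, Sbsn, Tgm5 and Ugcg.

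By TPM, Aloxe3 had 62.7% and 57.4% on its coding transcript and Abca12 70.4% and 62.0%, and in both genes the remainder lay on models with a retained intron. Ugcg had 77.0% and 80.2% of TPM on coding transcripts, Sbsn 82.7% and 80.5%, Tgm5 86.4% and 84.4% and Krtdap 85.6% and 87.3%. By expected counts, which weigh long transcripts more, the coding shares were larger. They were 68.8% and 65.3% for Aloxe3, 90.6% and 86.8% for Abca12, 94.9% and 96.3% for Ugcg, 91.7% and 90.5% for Sbsn, 93.2% and 92.1% for Tgm5 and 92.1% and 93.2% for Krtdap. Hal had 35.7% and 29.2% of counts on its coding transcript. By counts, Abca12, Aloxe3 and Hal were thus the genes under 90% in a library.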
